A study of Mus musculus with 4 samples.

Results

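The genes described here are 10 mouse genes that mark neutrophils, taken by symbol: the granule protein genes Mpo, Elane, Ngp, Camp and Ltf, the calgranulin genes S100a8 and S100a9, the secreted resistin-like gene Retnlg, and the receptor genes Cxcr2 and Csf3r. All 10 were found, among 41128 gene identifiers in the deposited count table, and all 10 reached 10 counts in at least 1 library.

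The libraries came from livers of C57BL/6 mice with experimental alcoholic hepatitis. All 4 groups shared the same treatment: 40% of daily calories were eaten freely as a high cholesterol fat diet, 60% were given into the stomach as an alcohol liquid diet, and a binge was added every week. None of the 4 is therefore an untreated control. Livers were dispersed with collagenase, hepatocytes were removed by slow centrifugation, and CD45+ leukocytes were depleted with magnetic beads, which left the presorted CD45- cells. Sorting with antibodies to Prom1 (prominin 1, CD133) and CD49f (integrin alpha 6) then gave 3 populations. Here the Prom1+ library is that of the Prom1+CD49f+CD45- cells, the Prom1- library that of the Prom1-CD49f+CD45- cells, and the labelled library the one whose label is Prom1+CD49f+CD45+. Each library pooled the RNA of 2 mice, with 1 library for each of the 4 populations, so no difference below has a replicate check and no p-value is given.

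Neutrophils are made in the bone marrow, where the granules form in a fixed sequence. Primary (azurophil) granules, which hold myeloperoxidase and serine proteases such as neutrophil elastase, are filled at the promyelocyte stage, and their messenger RNAs fade as the cell goes on to make the proteins of secondary granules, among them lactoferrin, cathelicidin and neutrophilic granule protein. The calgranulins S100A8 and S100A9 are the most abundant proteins of the neutrophil cytosol, CXCR2 is the receptor that draws mature neutrophils towards CXC chemokines, and the receptor encoded by Csf3r binds granulocyte colony-stimulating factor. In alcoholic hepatitis neutrophils enter the liver, and CD45, the protein used for the depletion here, is carried by neutrophils and other leukocytes.

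Summed gene counts ran from 14670239 to 52293939 per library, with the fewest in the Prom1- library and the most in the presorted library. Levels are given as TMM-scaled CPM, counts relative to library size (CPM) adjusted by the trimmed mean of M values, and intervals are exact 95% intervals that cover counting error only. The gene of the sorting antigen Prom1 stood at 355 scaled CPM in the Prom1+ library, 31.1 in the Prom1- library, 67.1 in the presorted library and 11.4 in the labelled library. Its level there was the lowest of the 4, against the label. Ptprc, the gene of CD45, stood at 14.5 in that library, 6.33 and 3.60 in the Prom1+ and Prom1- libraries, and 21.0 in the presorted library, which was named for its lack of CD45. For these reasons the labelled library is called by its label only, with no statement on which cells it held.

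Mpo (chromosome 11, 87793581 to 87804413, plus strand, mm10) had the most counts of the 10 genes in 3 libraries, the Prom1+ library being the exception. It encodes myeloperoxidase, the enzyme that makes hypochlorous acid. Its level was 980 scaled CPM (971 to 990) in the presorted library, 552 (543 to 561) in the labelled library, 48.7 (45.2 to 52.5) in the Prom1- library and 7.44 (6.56 to 8.41) in the Prom1+ library. These 4 intervals did not overlap. Elane (chromosome 10, 79886247 to 79888215, plus strand), the neutrophil elastase gene, followed at 318 (313 to 323), 181 (175 to 186), 22.5 (20.1 to 25.1) and 2.60 (2.09 to 3.20) in the same order of libraries. Both primary granule genes therefore had the same order, presorted, labelled, Prom1-, Prom1+, with every neighbour apart. In bulk RNA, fewer cells of a type and less RNA per cell cannot be told apart.

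The 3 secondary granule genes all lie on chromosome 9. Ngp (110419747 to 110423012, plus strand), which encodes a cathelin-like granule protein, stood at 103 scaled CPM in the presorted library, 38.7 in the labelled library, 6.92 in the Prom1- library and 0.321 in the Prom1+ library. Ltf (111019271 to 111042767, plus strand), the gene of the iron-binding protein lactoferrin, stood at 46.5, 19.7, 2.90 and 0.292 in that order. Camp (109847379 to 109849617, minus strand), the gene of the cathelicidin antimicrobial peptide, stood at 19.4, 7.25, 1.70 and 0.0292, the last value resting on 1 count. All 3 had the order of Mpo, with neighbours apart, and 570 kb separate Camp from Ngp and 596 kb separate Ngp from Ltf.

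The calgranulin genes S100a8 (chromosome 3, 90668978 to 90670035, plus strand) and S100a9 (90692632 to 90695721, minus strand) lie 22.6 kb apart. S100a8 stood at 80.3 scaled CPM in the presorted library, 27.2 in the labelled library, 5.02 in the Prom1- library and 0.0875, from 3 counts, in the Prom1+ library. For S100a9 the levels were 53.6, 18.7, 3.39 and 0.204. These 2 genes kept the same order too, and S100a8 had 1.50 counts for each S100a9 count (1.42 to 1.58) in the presorted library, 1.45 (1.29 to 1.64) in the labelled library and 1.48 (1.01 to 2.18) in the Prom1- library. Of 13 other S100 family genes 11 had enough counts. By the 2-fold rule given below, 1 of these was called higher (23.8% of all genes) in the labelled than in the presorted library. A further 3 were called lower (12.1% of all genes). S100a6, the nearest of the abundant family members and 44.8 kb from S100a8, was highest at 83.4 in the Prom1- library and lowest at 2.09 in the labelled library, an order unlike that of the calgranulins.

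Retnlg (chromosome 16, 48872621 to 48874496, plus strand), which encodes resistin-like gamma, a secreted product of mature neutrophils, was the scarcest of the 10 in the presorted library per kilobase of exon after the 2 receptors. It stood at 2.43 scaled CPM in the presorted library (108 counts), 0.564 in the labelled library (14 counts), 0.175 in the Prom1+ library (6 counts) and 0.0706 in the Prom1- library (1 count). The presorted level lay apart from the others. The ratio of the Prom1+ to the labelled library was 0.310 (0.0978 to 0.860), below 1, and the Prom1+ and Prom1- libraries could not be put in order at this depth.

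The receptor genes had other orders. Cxcr2 (chromosome 1, 74153989 to 74161246, plus strand) stood at 44.2 scaled CPM (41.7 to 46.9) in the labelled library, 29.3 (27.5 to 31.1) in the Prom1+ library, 6.29 (5.05 to 7.74) in the Prom1- library and 2.21 (1.79 to 2.69) in the presorted library. It was thus lowest where the granule genes were highest. Csf3r (chromosome 4, 126024550 to 126044440, plus strand) stood at 12.4 (11.4 to 13.5) in the presorted library, 9.91 (8.71 to 11.2) in the labelled library, 3.21 (2.64 to 3.87) in the Prom1+ library and 0.918 (0.489 to 1.57) in the Prom1- library. The 2 CD45- sorted libraries exchanged places between Csf3r and the granule genes, and with library totals or the authors' normalized values the labelled library came before the presorted one for Csf3r.

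**Figure D1:**
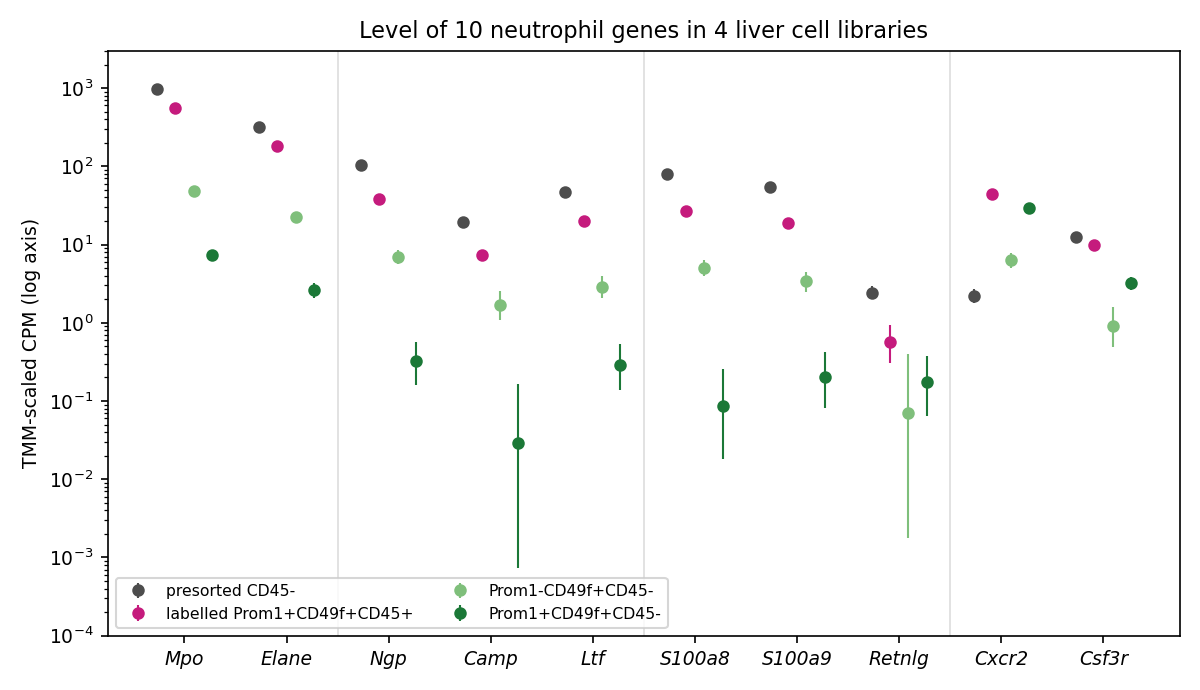
Level of each of the 10 genes (TMM-scaled CPM, log axis) in the 4 libraries; points are single libraries and bars are exact 95% Poisson intervals. For the 7 granule and calgranulin genes from Mpo to S100a9 the points fall in the same order from presorted to Prom1+, while Cxcr2 is lowest in the presorted library at 2.21.

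Levels of different genes were compared per kilobase of annotated exon. That scale holds for reads spread along the transcript and not for 3′ tags, which the title of the series names, so the order of genes depends on it. Without division by length Mpo (980 scaled CPM) stood above Elane (318), and Ngp (103) above S100a8 (80.3), in the presorted library. Per kilobase Elane was highest in the presorted library at 323 scaled CPM per kb, Mpo followed at 286, S100a8 at 116, S100a9 at 103 and Ngp at 84.1. Camp (25.6), Ltf (13.5), Retnlg (4.10), Csf3r (3.44) and Cxcr2 (0.724) were lower. In the labelled library Elane (183) and Mpo (161) again led, S100a8 stood at 39.2, and Cxcr2, at 14.5, stood above Camp at 9.57. The primary granule genes were thus above the calgranulin genes in both libraries. Ly6g, the surface antigen by which mature mouse neutrophils are usually sorted, stood at 0.720 scaled CPM in the presorted library and 0.161 in the labelled library. It stood at 0.0706 in the Prom1- library and 0 in the Prom1+ library, where the interval of 0 counts reached 0.108. Cxcr1, a related chemokine receptor gene 30.5 kb after Cxcr2, had 1 count in the presorted library and 0 in the other 3. These 2 markers of mature cells were thus near 0 in all 4 libraries.

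As a share of the counts of the 10 genes, Mpo made up 60.6% in the presorted library, 61.4% in the labelled library, 49.5% in the Prom1- library and 17.1% in the Prom1+ library. Elane added 19.6%, 20.1%, 22.8% and 5.95%. In the Prom1+ library Cxcr2 alone gave 67.1% (64.6 to 69.5) of 1495 counts, against 0.136% of 71886 counts in the presorted library. The 10 genes together held 0.137% of all counts in the presorted library, 0.0967% in the labelled library, 0.00950% in the Prom1- library and 0.00494% in the Prom1+ library.

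**Figure D2:**
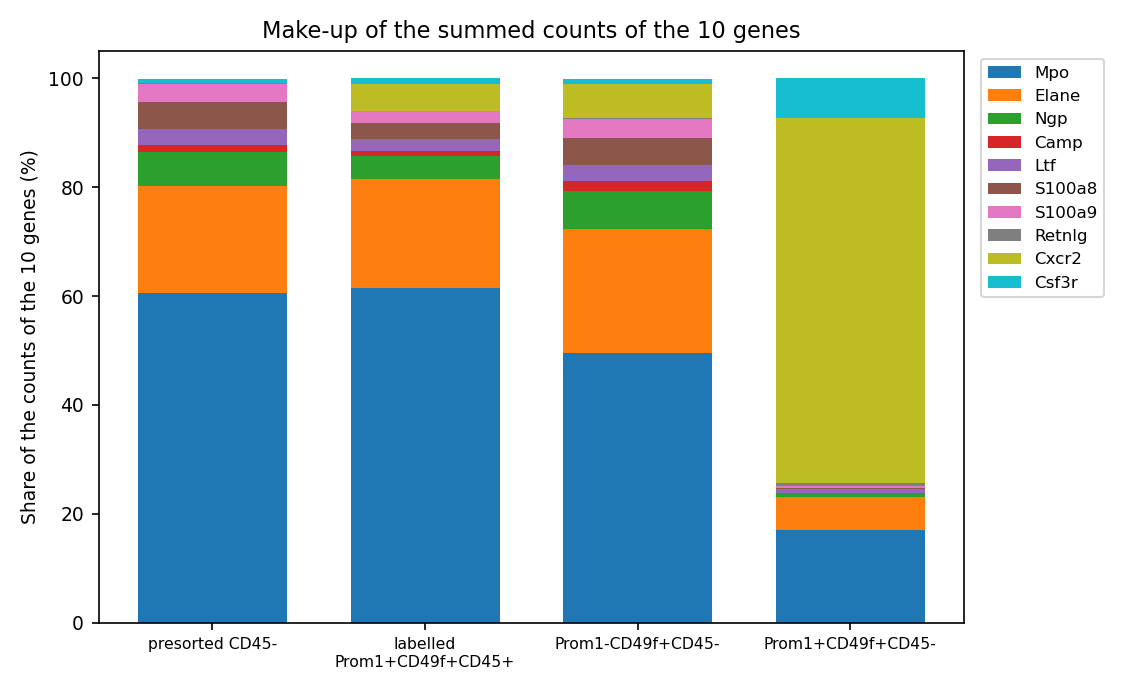
Share of the summed counts of the 10 genes (%, linear axis from 0) held by each gene in the 4 libraries, 1 library per bar and no error shown. Mpo and Elane fill most of the first 3 bars, and Cxcr2, at 67.1%, fills most of the Prom1+ bar.

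The annotated upstream bases of 5 genes are printed: Mpo, Elane, Ngp and Ltf, which shared an order of libraries, and Cxcr2, which did not. They are from RefSeq (GRCm38.p6), 5′ to 3′ on the strand of the gene, up to the first base of any annotated exon. Capitals mark matches, on either strand, to short motifs of 4 factors of granulocyte development: TTNNGNAA for C/EBP, GAGGAA for PU.1, TGTGGT for RUNX and AACTG for MYB. The stretches are chr11:87793534-87793580 for Mpo, chr10:79886062-79886246 for Elane, chr9:110419558-110419746 for Ngp, chr9:111019042-111019270 for Ltf and chr1:74153744-74153988 for Cxcr2, all on the plus strand.
Mpo: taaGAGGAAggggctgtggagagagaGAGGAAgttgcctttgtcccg
Elane: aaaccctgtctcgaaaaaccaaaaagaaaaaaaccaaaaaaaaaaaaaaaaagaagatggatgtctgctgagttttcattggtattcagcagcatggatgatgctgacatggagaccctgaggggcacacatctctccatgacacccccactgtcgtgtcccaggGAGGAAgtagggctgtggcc
Ngp: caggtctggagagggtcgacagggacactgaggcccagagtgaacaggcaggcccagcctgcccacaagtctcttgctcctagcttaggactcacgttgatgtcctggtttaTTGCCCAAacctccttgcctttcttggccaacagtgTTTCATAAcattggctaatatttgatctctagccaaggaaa
Ltf: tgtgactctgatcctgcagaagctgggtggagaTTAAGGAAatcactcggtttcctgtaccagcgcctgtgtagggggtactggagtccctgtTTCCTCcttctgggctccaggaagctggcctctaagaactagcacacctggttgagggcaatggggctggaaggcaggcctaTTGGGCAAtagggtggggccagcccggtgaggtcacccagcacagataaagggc
Cxcr2: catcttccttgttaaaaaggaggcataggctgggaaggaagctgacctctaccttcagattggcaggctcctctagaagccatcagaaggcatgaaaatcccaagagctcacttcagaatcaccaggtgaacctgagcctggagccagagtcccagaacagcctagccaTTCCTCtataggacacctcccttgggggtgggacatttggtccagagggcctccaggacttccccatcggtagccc
The motifs were counted over the 250 bases before the RefSeq start of each gene, a window that runs past some of the printed stretches. C/EBP matches were found for 5 of the 10 genes (S100a8, S100a9, Ngp, Ltf and Retnlg) and in 36.8% of 32851 promoters. PU.1 matches were found for 6 of the 10 (S100a8, Ltf, Mpo, Elane, Cxcr2 and Csf3r) and in 23.3% of promoters, and MYB matches for 5 of 10 and in 39.1%. The RUNX letters matched for S100a9 alone and in 14.0% of promoters. Mpo and Elane had PU.1 matches and no C/EBP match in this window, and Ngp had C/EBP matches and no PU.1 match. Cxcr2, which had another order of libraries, shared the PU.1 letters with both primary granule genes. A match describes the letters and not binding.

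The first comparison set the Prom1+ cells, the population named in the title of the series, against the presorted cells from which they were sorted. A gene was called higher or lower where the whole interval of its ratio lay beyond 2-fold. Of the 10 genes, 9 were called lower, where 15.6% of the 21640 genes tested were called lower, and Cxcr2 was called higher, where 27.6% were. The median log2 ratio of the 10 genes was -7.18, and that of all genes tested 0.18. Mpo was 132-fold lower (116 to 150) and Elane 122-fold lower (99.4 to 152). S100a8 and Ngp, with log2 ratios of -9.84 and -8.32, fell further. Ltf was 159-fold lower (86.5 to 333) and S100a9 262-fold lower (127 to 653). The Camp ratio rested on 1 count and was 0.00150 (3.8e-05 to 0.00840). Csf3r, at 3.86-fold lower (3.14 to 4.79), and Retnlg, at 13.9-fold lower (6.17 to 38.7), were the least reduced. Cxcr2 was 13.3-fold higher (10.8 to 16.5).

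The Prom1- cells against the presorted cells gave smaller differences for the 7 granule and calgranulin genes, and larger ones for Csf3r and Retnlg. Again 9 of the 10 genes were called lower (14.1% of all genes) and Cxcr2 was called higher (9.77% of all genes), and the median log2 ratio was -3.94 against 0.02 for all genes. Mpo was lower by the most among the 7 granule and calgranulin genes, at 20.1-fold (18.7 to 21.7). The other 6 were between 11.4-fold lower for Camp (7.64 to 18.0) and 16.1-fold lower for Ltf (11.8 to 22.4), and Elane was 14.1-fold lower (12.7 to 15.9). Csf3r was 13.5-fold lower (7.83 to 25.5), and Retnlg, with 1 count, had a ratio of 0.0291 (0.000729 to 0.165). Cxcr2 was 2.85-fold higher (2.12 to 3.84).

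Between the 2 CD45- sorted populations, Prom1+ against Prom1-, 7 of the 10 genes were called lower (12.7% of all genes) and Cxcr2 was called higher (15.5% of all genes), at 4.66-fold (3.75 to 5.85). The 7 were the granule and calgranulin genes. Mpo was 6.55-fold lower (5.67 to 7.59), Elane 8.65-fold (6.82 to 11.1), Ltf 9.93-fold (4.89 to 22.2), S100a9 16.6-fold (7.47 to 43.5) and Ngp 21.6-fold (11.5 to 44.6). S100a8, from 3 counts against 71, had a ratio of 0.0175 (0.00352 to 0.0531). Csf3r was 3.50-fold higher with an interval of 1.96 to 6.77 that reached inside 2-fold, and Retnlg, from 6 counts and 1 count, was not called.

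A background was taken from sensory receptor genes, which have no known role in these cells. Of 1506 olfactory, vomeronasal and taste receptor genes, 69.3% were counted at least 1 time in the Prom1+ library, 69.5% in the labelled library, 27.0% in the Prom1- library and 12.4% in the presorted library. Percentile 95 of their levels was 0.817, 1.08, 0.353 and 0.0450 scaled CPM in the same order of libraries. In the Prom1+ library S100a8, S100a9, Ngp, Camp, Ltf and Retnlg were at or below that percentile, and Mpo (7.44), Elane (2.60), Csf3r (3.21) and Cxcr2 (29.3) were above it. Retnlg was also at or below it in the labelled library and the Prom1- library. The folds of those 6 genes in the Prom1+ library are therefore read against a level that sensory receptor genes also reached there. Cxcr2 stood 35.8 times above that percentile in the Prom1+ library, 41.0 times in the labelled library, 17.8 times in the Prom1- library and 49.0 times in the presorted library. The level of Cxcr2 and that percentile had the same order of libraries, and the part of that background in the Cxcr2 result was not tested.

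**Figure D3:**
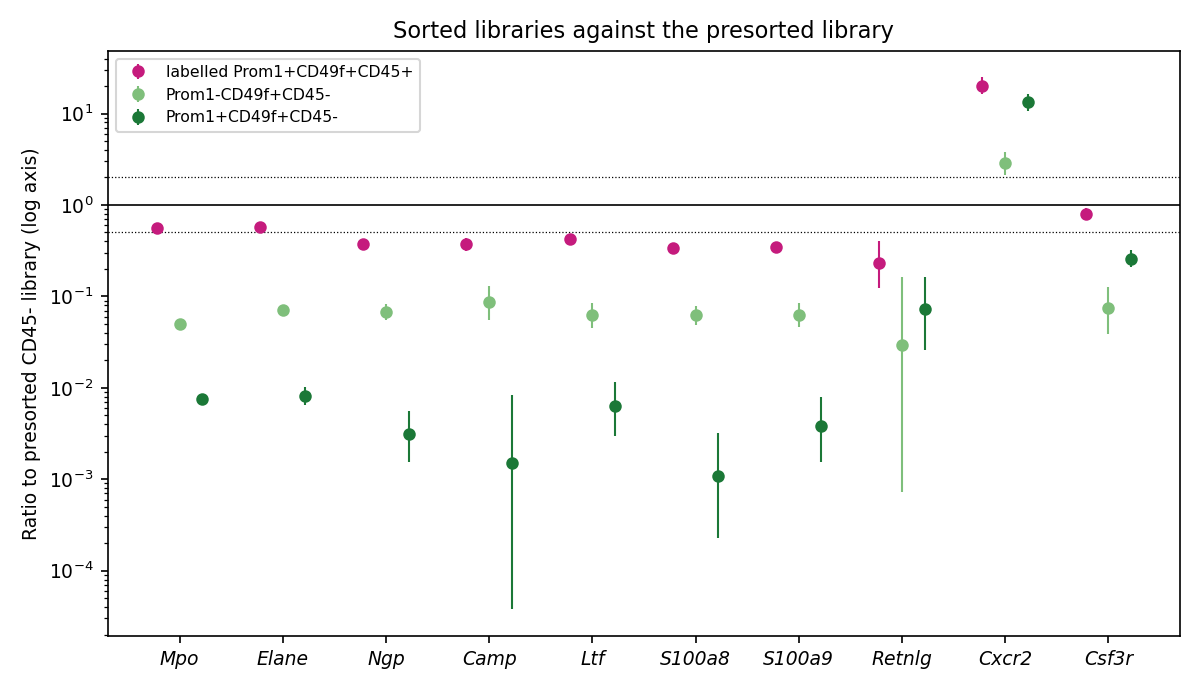
Ratio of each gene in the 3 sorted libraries to the presorted library, on a log axis; points are ratios of TMM-scaled counts, bars are exact 95% intervals, and dotted lines mark 2-fold. In the labelled library Mpo (0.563) and Elane (0.568) lie inside the 2-fold lines and Ngp, Camp, Ltf, S100a8, S100a9 and Retnlg lie below them; Cxcr2 lies above 1 in all 3.

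The labelled library against the presorted library asked whether Mpo goes with the other granule genes. It did so for its order of libraries. That order was not particular to granule genes. The matrix gene Emilin1 had it too, at 743, 651, 113 and 5.08 scaled CPM from presorted to Prom1+. The share of all genes with that order was not counted. The size of the Mpo change was close to that of Elane and of 4 further genes of the primary granule list. These 4 were chosen after their values were seen. The Mpo change was smaller than that of the secondary granule and calgranulin genes. Of the 10 genes, 6 were called lower (12.1% of all genes) and Cxcr2 was called higher (23.8% of all genes), at 20.1-fold (16.3 to 24.9). Mpo, Elane and Csf3r were not called. With library totals in place of TMM, 2 of the 10 were called lower, since Ngp (0.476), Camp (0.473), Ltf (0.535) and Retnlg (0.294) were then not called, and with the authors' normalized values 3 were. The median log2 ratio of the 10 was -1.33, and that of all genes 0.09.

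Mpo in the labelled library was 0.563 of its presorted level (0.552 to 0.574), and Elane was 0.568 of its own (0.549 to 0.588). S100a8 was 2.95-fold lower (2.72 to 3.21), S100a9 2.86-fold (2.59 to 3.17), Camp 2.68-fold (2.28 to 3.16), Ngp 2.66-fold (2.48 to 2.85) and Ltf 2.36-fold (2.14 to 2.62). Retnlg, from 14 counts, was 4.31-fold lower (2.46 to 8.15). Csf3r stood at 0.799 (0.685 to 0.931). The log2 ratio of Mpo was -0.83 and the median over the other 9 genes was -1.41, a difference of 0.58 in which the scaling between libraries cancels.

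Dividing the ratio of Mpo by that of another gene removes the scaling between libraries. The quotient, with an approximate 95% interval on the log scale, was 0.991 (0.953 to 1.03) for Mpo against Elane. It was 1.66 (1.53 to 1.81) against S100a8, 1.61 (1.46 to 1.78) against S100a9, 1.51 (1.28 to 1.77) against Camp, 1.50 (1.39 to 1.61) against Ngp and 1.33 (1.20 to 1.47) against Ltf. The intervals of these 5 lay above 1, and that of Elane spanned it. Retnlg gave 2.43 (1.39 to 4.23), Csf3r 0.704 (0.605 to 0.820) and Cxcr2 0.0281 (0.0228 to 0.0345).

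The other primary granule and promyelocyte genes, from a list of 10 of which 9 had enough counts, were set beside Mpo in the same way. Prtn3, the proteinase 3 gene that lies 3.07 kb before Elane, stood at 112 scaled CPM in the presorted library, 61.7 in the labelled library, 10.6 in the Prom1- library and 1.05 in the Prom1+ library, and its quotient was 1.02 (0.960 to 1.08). Ctsg, the cathepsin G gene, stood at 33.4, 20.1, 0.918 and 0.321, with a quotient of 0.934 (0.842 to 1.04). Ms4a3, a membrane protein gene of granulocyte and monocyte progenitors, stood at 35.3, 21.5, 3.67 and 0.233, with 0.925 (0.837 to 1.02). For Prss57, a further granule serine protease, the levels were 11.3, 6.45, 0.777 and 0.263, and the quotient was 0.989 (0.827 to 1.18). Each of these 4 intervals spanned 1, and the log2 ratio of Mpo minus the median over Elane and these 4 was -0.02. The 4 were picked with their values known, so this small difference does not test whether Mpo goes with primary granule genes.

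The remaining genes of the same list were spread more widely, though the interval of Serpinb1a also spanned 1. Gfi1, a transcription factor of granulocyte commitment, stood at 5.78 in the presorted library, 5.04 in the labelled library, 0.353 in the Prom1- library and 0 in the Prom1+ library, with a quotient of 0.646 (0.522 to 0.801). Cebpe, the factor required for secondary granule genes, stood at 4.03, 1.45, 0.0706 and 0 and gave 1.56 (1.09 to 2.24), near the values of Ngp, Camp and Ltf. Igsf6 stood at 28.3, 12.2, 2.05 and 0.379, gave 1.31 (1.15 to 1.49) and was the only one of the 9 called lower in the labelled library. Serpinb1a, an inhibitor of neutrophil proteases, stood at 40.8, 21.1, 47.9 and 6.04 and gave 1.09 (0.987 to 1.20). Srgn, the proteoglycan core that packs granule contents and is made by many cell types, stood at 220, 276, 488 and 2.60 and gave 0.449 (0.433 to 0.465). The quotients of Gfi1, Cebpe, Igsf6 and Srgn thus lay away from 1. Bpi had 0 counts in all 4 libraries.

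**Figure D4:**
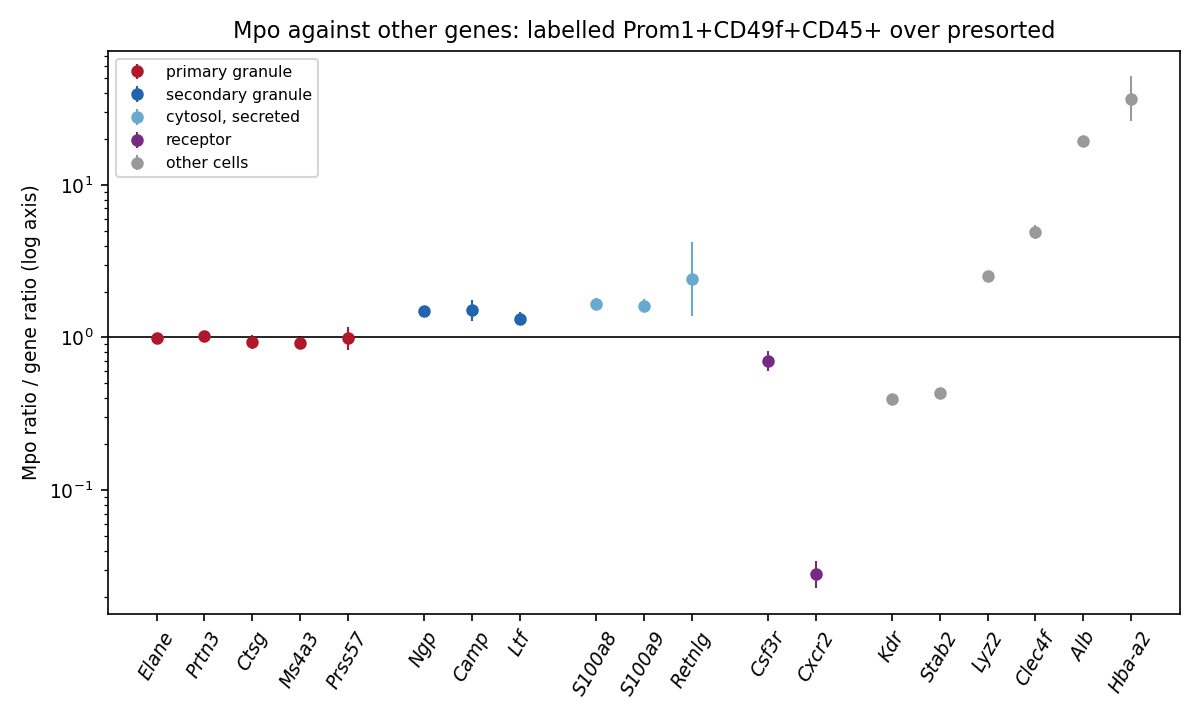
Ratio of Mpo (labelled over presorted library) divided by the same ratio of another gene, on a log axis; a point at 1 means that both genes changed alike, and bars are approximate 95% intervals. Elane, Prtn3, Ctsg, Ms4a3 and Prss57 lie near 1 (0.925 to 1.02), Ngp, Camp, Ltf, S100a8, S100a9 and Retnlg lie above it, and markers of other cells lie far on either side.

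The counts behind these quotients can be read within each library. Mpo had 3.09 counts for each Elane count (3.03 to 3.14) in the presorted library, 3.06 (2.96 to 3.16) in the labelled library, 2.17 (1.90 to 2.49) in the Prom1- library and 2.87 (2.24 to 3.69) in the Prom1+ library. The Prom1- value lay below those of the presorted and labelled libraries. Against S100a8, Mpo had 12.2 counts (11.8 to 12.6) in the presorted library, 20.3 (18.8 to 22.0) in the labelled library and 9.72 (7.60 to 12.6) in the Prom1- library, and the ratio of 85.0 (28.8 to 415) in the Prom1+ library rested on 3 S100a8 counts. Ngp had 5.30 counts for each Camp count (4.93 to 5.71) in the presorted library and 5.33 (4.54 to 6.29) in the labelled library. Ngp and Camp therefore kept their proportion to each other in these 2 libraries while Mpo shifted against S100a8. The Prom1- library did not show the same split. Against the presorted library, the quotient of Mpo there was 0.703 (0.615 to 0.804) for Elane, 0.525 (0.439 to 0.628) for Prtn3 and 0.478 (0.359 to 0.636) for Ms4a3. It was 0.796 (0.622 to 1.02) for S100a8, 0.786 (0.585 to 1.06) for S100a9 and 0.798 (0.581 to 1.10) for Ltf. In that comparison Mpo fell further than the first 3 genes, and the intervals of the last 3 spanned 1. Those of Ngp, at 0.738 (0.596 to 0.914), and Camp, at 0.569 (0.377 to 0.859), also lay below 1. Ctsg gave 1.81 (1.04 to 3.14), above 1, and Prss57 gave 0.724 (0.397 to 1.32), which spanned it.

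The Prom1+ library against the labelled library completes the set. Of the 10 genes, 8 were called lower (13.1% of all genes) and 0 higher (12.5% of all genes), and the median log2 ratio was -6.17 against -0.17 for all genes. Mpo was 74.2-fold lower (65.5 to 84.3), Elane 69.5-fold (56.4 to 86.7) and Ltf 67.4-fold (36.3 to 141). S100a9 was 91.7-fold lower (44.2 to 229). Csf3r was 3.09-fold lower (2.46 to 3.90). Cxcr2, at 0.662 (0.607 to 0.721), and Retnlg, at 0.310 (0.0978 to 0.860), were not called. The 3 comparisons with the presorted cells share that library, and this one shares its 2 libraries with others above, so their values are not independent.

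Other leukocyte and liver cell markers moved with some of these differences. The 10 endothelial markers summed to 11681 scaled CPM in the presorted library, 15482 in the labelled library, 5014 in the Prom1- library and 116 in the Prom1+ library. In the labelled library 0 of 10 were called higher (23.8% of all genes) or lower (12.1%). The 16 Kupffer cell and macrophage markers summed to 3203, 2654, 614 and 331, with 13 called lower (12.1% of all genes) and 0 higher (23.8%) in the labelled library. Mrc1 gave 1288, 1786, 317 and 10.9 of those sums, and the median log2 ratio of the 16 in the labelled library was -2.56. The 12 eosinophil, basophil and mast cell markers summed to 527, 689, 70.6 and 7.12, of which Kit gave 431, 622, 41.2 and 4.06. Of the 12, 6 were called lower (12.1% of all genes) and 0 higher (23.8%) in the labelled library, with a median log2 ratio of -1.63. The defining eosinophil gene Epx, a peroxidase related to Mpo, stood at 2.81 in the presorted library and 0.161 in the labelled library, and Lpo, the peroxidase gene 2.02 kb after Mpo, had at most 2 counts in any library. Of the 7 peroxidase genes, Mpo included, 5 had enough counts. In the labelled library 1 was called higher (23.8% of all genes) and 2 lower (12.1%). Lymphocyte markers summed to 37.1, 38.2, 6.78 and 9.98. The quotient of Mpo against the endothelial genes Kdr and Stab2 was 0.395 and 0.436, against the Kupffer cell gene Clec4f 4.89, against the macrophage gene Lyz2 2.54 and against the hepatocyte gene Alb 19.4. The quotient against Ptprc was 0.812 (0.718 to 0.918). In the Prom1+ library against the presorted one, the quotient of Mpo was 1.16 (0.995 to 1.35) against Kdr and 0.896 (0.764 to 1.05) against the macrophage and endothelial gene Mrc1. It was 1.45 (0.874 to 2.41) against the globin gene Hba-a2, and these 3 intervals spanned 1. That of Stab2, at 1.25 (1.08 to 1.45), lay above 1. Those of Clec4f (0.585), Lyz2 (0.667), Ptprc (0.0251) and Alb (0.0123) lay below it. The part of all these markers in the results was not tested.

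In a wider list of 52 further neutrophil genes, 47 had enough counts. In the Prom1+ library 33 were called lower (15.6% of all genes) and 0 higher (27.6%) than in the presorted library, and in the Prom1- library 29 were called lower (14.1%) and 1, Srgn, higher (9.77%). In the labelled library 22 of the 47 were called lower (12.1% of all genes) and 1, Clec4e, higher (23.8% of all genes). With library totals 13 were called lower there. Among the secondary and tertiary granule genes of that list 9 of 12 were called lower in the labelled library, among the primary granule genes 1 of 9, a share near that of all genes, and among the mature neutrophil genes 12 of 26, with 1 higher. Lyz2, the lysozyme gene shared with macrophages, stood at 269 scaled CPM in the presorted library, 59.6 in the labelled library, 29.4 in the Prom1- library and 3.06 in the Prom1+ library. Cd177, a neutrophil surface glycoprotein gene, stood at 10.8, 3.99, 0.353 and 0.146. Chil3 stood at 26.9, 9.79, 1.20 and 0.817. These 3 had the order of the granule genes, but the Prom1- and Prom1+ intervals of Cd177 and of Chil3 overlapped. Cyba, an oxidase subunit gene that many cell types express, stood at 111, 87.5, 201 and 84.1 and did not have that order. Mmp8, Mmp9, Olfm4, Cybb and Adam8 of the secondary and tertiary granule list had higher levels in the Prom1+ than in the Prom1- library. Among these genes only Olfm4, at 1.23 against 0.141, was called, and the intervals of Mmp8 and of Mmp9 overlapped. Percentile 95 of the sensory receptor genes was itself higher in the Prom1+ library, at 0.817 against 0.353. Mmp9, at 0.233 and 0.0706, lay below it in both.

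Lcn2, the gene of the secondary granule protein lipocalin 2, which injured epithelium also makes, had yet another order. It stood at 978 scaled CPM in the presorted library, 785 in the Prom1+ library, 797 in the Prom1- library and 28.3 in the labelled library. It was called 27.8-fold higher (25.8 to 30.0) in the Prom1+ library than in the labelled one, the opposite of Ngp, Camp and Ltf. The mature neutrophil list was led by Hp (4457 in the presorted library) and Lrg1 (1005), plasma protein genes that hepatocytes also express.

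The ligands of the 2 receptors were measured in the same libraries. Cxcl1, a neutrophil-attracting chemokine that binds CXCR2, stood at 25.1 scaled CPM in the presorted library, 83.8 in the Prom1+ library, 96.3 in the Prom1- library and 38.9 in the labelled library. Cxcl5, a further CXCR2 ligand, stood at 4.52, 20.0, 27.2 and 0.765 in the same order, and it was 26.1-fold higher (16.6 to 43.6) in the Prom1+ library than in the labelled one. Both chemokines were therefore highest in the 2 CD45- sorted libraries, in which the granule genes were lowest. Cxcl2 was lower in level, at 2.14, 3.76, 5.86 and 6.89. Csf3, the gene of the ligand of the Csf3r product, had 0 counts in all 4 libraries. Of the 12 genes on the list of ligands and related signals, 10 had enough counts. In the Prom1+ library 5 were called higher (27.6% of all genes) and 2 lower (15.6%) than in the presorted one. In the Prom1- library 8 were called higher (9.77% of all genes) and 0 lower (14.1%). In the labelled library 2 were called higher (23.8% of all genes) and 2 lower (12.1%).

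The genes whose level pattern over the 4 libraries was most like that of Mpo were sought among 13936 genes with at least 100 counts, by the distance between centred log2(scaled CPM + 0.1) profiles. The 5 nearest were Elane (0.41), Ltf (0.56), Prtn3 (0.79), Gfi1 (0.81) and S100a9 (0.82). The 5 nearest to S100a8 were Ngp (0.64), S100a9 (1.09), Camp (1.17), Emilin1 (1.24) and Tmem132e (1.36). Emilin1, an extracellular matrix gene, stood at 743 scaled CPM in the presorted library, 651 in the labelled library, 113 in the Prom1- library and 5.08 in the Prom1+ library. With a pseudocount of 0.5, 2 of the 5 remained in each list. The list of Mpo then held Elane, Ngp, Itga8, S100a8 and Prtn3, and that of S100a8 held Ngp, Elane, Prtn3, S100a9 and Mpo. Neither of these lists kept primary granule and calgranulin genes apart, and the list of Mpo with the smaller pseudocount already held S100a9. The 5 nearest to Cxcr2, a list added after its values were seen, were Gm26901 (0.14), Speer4cos (0.14), Gm9750 (0.18), Prdm11 (0.19) and Six4 (0.24). No gene of the neutrophil lists was among them. Prdm11 stood at 5.51 in the presorted library, 85.2 in the Prom1+ library, 17.2 in the Prom1- library and 123 in the labelled library. The gene before Cxcr2, Rufy4, stood at 0.0450, 0.817, 0.283 and 0.161, and Tns1 beyond it at 221, 591, 136 and 195. Neither neighbour had the order of Cxcr2.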

How the data were processed

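RNA was sequenced in 4 libraries, each from pooled RNA of 2 mice. Per the labels' protocols, libraries were poly(A)-selected and stranded, with more amplification cycles where there was less RNA. The title of the series has Quant-seq, a 3′ tag method, and which of them applies is unsettled. The authors deposited estimated counts per gene (50.5% to 60.5% of a library's values were whole) and normalized values, which are CPM with 1 added to every value. Partek 3, TopHat2 and mm10 are named in the submitters' processing notes. Not given in the sources used here are the annotation and whether counting used strand. Among the 10 genes only Mpo overlaps another gene on exons, the antisense Gm11505, which stood at or below 0.564 scaled CPM. The column named for CD45 was taken as the presorted cells, the remaining population of the design text.

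Symbols and exons came from GENCODE vM21, which matched 40254 of 41128 identifiers. All 10 promoters were matched in the RefSeq table. Estimated counts were rounded, scaled with edgeR 4.0.16 under R 4.3.3 (TMM on the 21640 genes that reached 10 counts in any library), and compared by ratio with an exact conditional binomial (Clopper-Pearson) 95% interval. Levels have exact Poisson intervals. Quotients of ratios have log-normal intervals. With 1 library a group no test was possible. Reads without molecular identifiers are not independent molecules, so intervals and floors cover counting error only. A count of 0 was set against 3 counts.

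The 10 genes and all lists were chosen with earlier results of these data known. The named genes were the 10, up to 4 genes with the highest mean level of each further list, the primary granule list, genes called against their list, the 5 nearest in pattern to Mpo and to S100a8, neighbouring genes, and Prom1, Itga6 and Ptprc. Not every gene this rule takes is named. Cd177, Chil3, Epx, Ly6g, Cxcl2, Csf3 and the single markers set against Mpo were chosen after their values were seen. Itga6, the gene of CD49f, stood at 72.9, 50.5, 127 and 110 scaled CPM in the Prom1+, Prom1-, labelled and presorted libraries. In the same order the monocyte and dendritic cell list summed to 1198, 204, 172 and 909 (Fn1 alone 1165, 178, 43.3 and 774), the erythroid list to 178, 211, 57.9 and 387 (Car2 alone 175, 124, 18.0 and 82.2), the cholangiocyte list to 21955, 8992, 349 and 3471, and the hepatocyte list to 6628, 5073, 471 and 21130. Alternatives were DESeq2 1.42.0 size factors, library totals, the authors' normalized values, other count filters, other call rules and another pseudocount.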

Additional observations from a re-analysis of the deposited data

How the results depend on the processing

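Of 153 values recomputed under alternatives, 122 kept their direction and size or call. The orders of the 4 libraries did so for 9 of the 10 genes, and Csf3r is given above. Over 50 ratios of the 10 genes, DESeq2 size factors kept all 50 calls, library totals 45 and the authors' normalized values 44, and 0 ratios reversed. The Mpo ratio of labelled to presorted was 0.546 with DESeq2 size factors, 0.713 with library totals and 0.760 with the authors' values. Its difference from the other genes was -0.02 when set against the primary granule genes, a choice made after seeing the data. Of the 10 genes, those called lower in labelled against presorted numbered 2 with library totals, 3 with the authors' values and 0 beyond 4-fold, where 2073, 2745 and 1394 of all 21640 genes were. Those called higher in Prom1+ against Prom1- numbered 2 with library totals, 3 with the authors' values, 0 beyond 4-fold and 3 on the ratio without its interval. Of all 21640 genes, 4512, 5802, 836 and 6718 were called higher there, so these counts are not read as a result about the 10. Prom1- against presorted gave 0 higher beyond 4-fold, where 716 of all genes were. Of 47 further neutrophil genes, 15 were called in labelled against presorted with library totals (2 higher, 13 lower) and 9 beyond 4-fold (0 higher). Of all genes, 5862 were called higher and 2073 lower, and beyond 4-fold 3587 and 1394. In Prom1+ against Prom1-, 31 were called with the authors' values (7 higher, 24 lower) and 34 on the ratio alone (10 higher, 24 lower). Of all genes, 5802 were called higher and 4536 lower, and on the ratio alone 6718 and 3891. The genes nearest to Mpo and to S100a8 kept 2 and 2 of 5 with the larger pseudocount.

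Calls over all genes moved as follows. Prom1+ against presorted gave 9341 calls, 6214 with at least 50 counts and 5018 beyond 4-fold. Prom1- against presorted gave 5171, 9252 with the authors' values, 1555 beyond 4-fold and 8953 on the ratio alone. Labelled against presorted gave 7769, 4277 with at least 50 counts and 4981 beyond 4-fold. Prom1+ against Prom1- gave 6107, 10338, 2181 and 10609 with the authors' values, beyond 4-fold and on the ratio alone, and against labelled 5541, 9252, 2983 and 8621. The share of calls that were higher in Prom1- against presorted was 40.9%, 51.5% with DESeq2 size factors, 52.5% with library totals and 68.3% with the authors' values. It was 54.8% and, with library totals, 66.9% in Prom1+ against Prom1-, and 48.9% and, with the authors' values, 35.0% in Prom1+ against labelled. Library totals moved the median log2 ratio of all genes from 0.18 to 0.59, from 0.02 to 0.21, from 0.09 to 0.43 and from 0.36 to 0.59 in the first 4 comparisons. Other causes of these shifts were not tested. No paired analysis was possible because each group had 1 library. Depth limits Camp, S100a8 and Retnlg, which had 1 to 6 counts in the Prom1+ library.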
